A study of Mus musculus with 4 samples.

Results

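Immediate early genes were examined in CD11b+Ly6g+ myeloid-derived suppressor cells (MDSCs) sorted from mouse lung. The genes are 10 named genes, Fos, Fosb, Jun, Junb, Jund, Atf3, Egr1, Nr4a1, Dusp1 and Ier2, and were picked by symbol from the 54532 genes of the count table. All 10 were found on 1 row each, and all 10 passed the filter of at least 10 counts in at least 1 library. The 4 groups were C57BL/6 mice of 6 to 8 weeks that carried the pre-metastatic niche (PMN) model. Every mouse, controls included, had received MCM, the medium conditioned by B16F10 melanoma cells, at 300 μL into the peritoneum for 10 days and an intravenous dose of B16F10 cells on day 7. The control group got no peptide, and the others got TP5, sFD17 or FR17 under the skin from day 3 at 40 μM/kg per day. TP5 is the free immunomodulatory pentapeptide thymopentin. FR17 carries TP5 on a backbone that assembles into a nano-blanket after cleavage by MMP2, and sFD17 has the same backbone with the TP5 residues scrambled. Lungs were taken on day 10, digested with collagenase on a shaker and sorted, and the cells of 10 to 12 mice were pooled into 1 library per group. No group has a replicate, so a difference below is between libraries and not between conditions, and no p-value is given.

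Immediate early genes are switched on within minutes of a stimulus, without new protein synthesis, when MAP kinases act on transcription factors already bound at their promoters. Their own products are mostly short-lived transcription factors. Fos, Fosb, Jun, Junb and Jund encode subunits of AP-1, a dimer of basic leucine zipper (bZIP) proteins, and Atf3 encodes a related bZIP factor induced by stress. Egr1 encodes a zinc finger factor, Nr4a1 an orphan nuclear receptor, Dusp1 a phosphatase that switches MAP kinases off, and Ier2 a small nuclear protein of the same response. Enzymatic digestion of tissue is itself known to induce these genes.

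The promoters of Jun, Junb and Dusp1 are shown because they lay at opposite ends of the difference between the FR17 and sFD17 libraries, Jun as the member highest in FR17 over sFD17 and Dusp1 and Junb as the lowest. Each line gives the 250 bases before the RefSeq start of the gene, from 5′ to 3′ on the coding strand, in build GRCm38.p6. Capitals mark the cAMP response element (CRE, TGACGTCA) and its variant TGACATCA, searched on both strands.
Jun, chr4:95052223-95052472, minus strand: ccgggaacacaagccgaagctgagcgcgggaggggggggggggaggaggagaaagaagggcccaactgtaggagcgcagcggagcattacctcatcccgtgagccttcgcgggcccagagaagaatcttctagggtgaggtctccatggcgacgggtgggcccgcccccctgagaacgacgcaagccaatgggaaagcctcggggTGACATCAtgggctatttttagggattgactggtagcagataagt
Junb, chr8:84978749-84978998, minus strand: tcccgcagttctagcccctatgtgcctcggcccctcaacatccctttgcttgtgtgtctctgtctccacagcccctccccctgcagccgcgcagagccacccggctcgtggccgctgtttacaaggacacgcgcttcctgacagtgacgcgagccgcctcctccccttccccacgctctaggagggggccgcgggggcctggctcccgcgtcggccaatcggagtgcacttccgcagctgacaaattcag
Dusp1, chr17:26508473-26508722, minus strand: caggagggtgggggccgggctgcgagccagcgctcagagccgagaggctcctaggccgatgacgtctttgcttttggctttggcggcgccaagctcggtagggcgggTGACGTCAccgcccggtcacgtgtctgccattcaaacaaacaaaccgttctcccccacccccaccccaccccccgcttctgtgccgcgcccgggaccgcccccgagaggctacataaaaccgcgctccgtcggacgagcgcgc
Of 8 members whose RefSeq promoter was searched, 1, Dusp1, held the CRE, which 1.55% of all 32851 promoter windows hold. Another 1, Jun, held the variant, which 2.93% hold. Only these exact bases were searched, so shorter or altered forms of the element were not counted. None of these 8 windows held the AP-1 site TGACTCA, against 4.46% of all windows. None held a CArG box, the binding element of serum response factor, against 1.47%. Egr1 and Ier2 were not among the 8, so their promoters were not searched for any of these elements. The GC box GGGCGG stood in 6 of the 8, against 32.7% of all windows. Junb held neither the CRE nor the variant, but had a CCAAT motif from 36 to 32 bases before the start, as Jun had from 65 to 61 bases before it. Elements farther upstream are outside these windows.

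The members were among the most abundant transcripts of these cells in every library. Together they took 2.55% of the control counts (95% Wilson interval 2.54 to 2.55), 2.33% with TP5 (2.32 to 2.33), 2.62% with sFD17 (2.62 to 2.63) and 2.24% with FR17 (2.23 to 2.24). Totals ranged from 15543071 to 19638228 counts per library. Intervals here and below cover counting error only. By counts Junb ranked between 3 and 5 among all genes in the 4 libraries, and Dusp1 between 7 and 15. Jund, the lowest member by counts, ranked between 264 and 367.

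CPM are counts scaled to library size by TMM, which corrects for composition. Apart from the ranks above, which do not correct for gene length, levels were compared between genes as CPM per kilobase of gene. On that scale Junb led in every library, with 3212 in control, and 3160, 4142 and 2321 with TP5, sFD17 and FR17. Dusp1 followed with 2027, 1644, 2640 and 1308 CPM per kb in the same order, and Fos with 1262, 1016, 1448 and 967. Nr4a1 came next in every library, at 566 to 988 CPM per kb. This order of the first 4 genes was the same in all 4 libraries. Below them the order was not the same from library to library. Fosb stood at 491 CPM per kb in control (487 to 495) beside Ier2 at 480 (471 to 488), whose intervals overlapped, but at 306 against 463 in FR17. Jun at 345 CPM per kb (340 to 350) and Jund at 341 (334 to 348) were not separable in control. In sFD17 Jund stood at 338 and Jun at 274, and in FR17 Jun stood at 367 and Jund at 293. Atf3 ranged from 279 to 374 CPM per kb, and Egr1, the lowest in control, from 236 to 333. The file gives Dusp1 a length of 2697 bases where the exons of GENCODE M21 cover 3311, so its level per kilobase depends on the gene model.

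**Figure D1:**
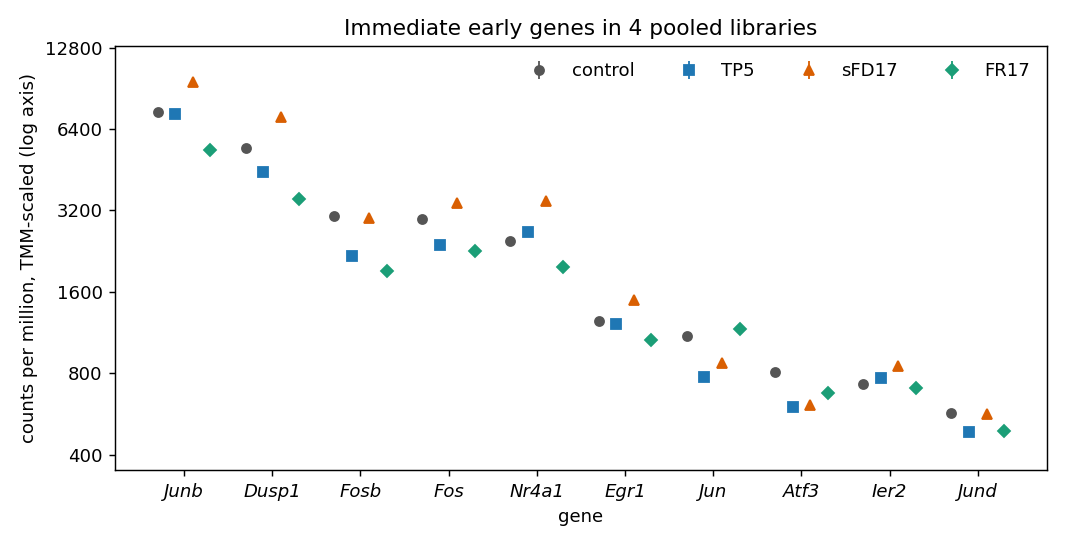
TMM-scaled CPM of the 10 immediate early genes (log axis) in the control, TP5, sFD17 and FR17 libraries, 1 point per library, with 95% Poisson intervals of the counts that are mostly smaller than the points. Junb and Dusp1 were highest in sFD17 and lowest in FR17, while Jun was highest in FR17.

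The AP-1 genes did not share 1 order of libraries. Jun (ENSMUSG00000052684, chromosome 4 from 95049034 to 95052222, minus strand, a single exon) had 1100 CPM in control, and 771, 873 and 1169 with TP5, sFD17 and FR17. Junb (ENSMUSG00000052837, chromosome 8 from 84974484 to 84978718, minus strand) had 7391 CPM in control, and 7270, 9530 and 5341 with TP5, sFD17 and FR17. Jun was thus highest in FR17, the library in which Junb was lowest. Jund (ENSMUSG00000071076, chromosome 8 from 70698949 to 70700616) had 568, 485, 564 and 489 CPM in the order control, TP5, sFD17 and FR17. It varied least of the members on this scale, but as shares of all counts Egr1 and Ier2 varied less. Fos (ENSMUSG00000021250, chromosome 12 from 85473890 to 85477273) had 2969, 2389, 3405 and 2275 CPM in that order. Fosb (ENSMUSG00000003545, chromosome 7 from 19302696 to 19310051) had 3065, 2172, 2989 and 1908 CPM. Fos and Fosb were both higher in control and sFD17 than in TP5 and FR17. Atf3 (ENSMUSG00000026628, chromosome 1 from 191170296 to 191218039) had 806 CPM in control, and 602, 613 and 677 with TP5, sFD17 and FR17, so every peptide library stood below control.

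Of the 4 members outside AP-1, Dusp1 and Egr1 took the order of Junb on the TMM scale, while Nr4a1 and Ier2 were higher in TP5 than in control. Dusp1 (ENSMUSG00000024190, chromosome 17 from 26505590 to 26508519) had 5466 CPM in control, and 4433, 7121 and 3528 with TP5, sFD17 and FR17. Nr4a1 (ENSMUSG00000023034, chromosome 15 from 101254269 to 101274795) had 2468, 2663, 3468 and 1985 CPM. Egr1 (ENSMUSG00000038418, chromosome 18 from 34859823 to 34864984) had 1250, 1215, 1492 and 1059 CPM. For these 3 genes sFD17 was the highest library and FR17 the lowest on this scale. As shares of all counts Egr1 was instead lowest in control, at 0.1232% beside 0.1238% in FR17. Junb and Dusp1 did not share 1 order there, since Junb was higher in TP5 than in control and Dusp1 lower. Ier2 (ENSMUSG00000053560, chromosome 8 from 84661331 to 84662852) stayed within 704 to 848 CPM, a range of 1.2-fold.

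On the TMM scale the members differed between the highest and the lowest library by 1.17-fold for Jund to 2.02-fold for Dusp1. The median of this range was 1.66-fold over the 16369 genes tested and 1.48-fold over the 3010 abundant genes, those with a mean of at least 1000 counts. Among abundant genes 11.5% had a smaller range than Jund, 16.0% a smaller one than Ier2, 72.5% a smaller one than Junb and 81.5% a smaller one than Dusp1. On this scale the members therefore included genes from the steadier and from the more variable part of that class. Both ends of their order changed with the scaling. As shares of all counts Egr1 was the steadiest member, at 0.123% to 0.127%. Jun was the most variable there, from 0.0741% in sFD17 to 0.137% in FR17.

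Each peptide library was set against control, and 0 of the 10 members passed a 2-fold change in any of these comparisons. Over all genes tested, 8.18% passed 2-fold with TP5 (3.20% higher and 4.99% lower), 11.8% with sFD17 (5.32% and 6.47%) and 7.50% with FR17 (3.92% and 3.58%). Among abundant genes the shares were 0.631%, 4.92% and 1.13%. At 1.5-fold, 0 members passed with TP5, where 20.8% of all genes tested did, and 0 with sFD17, where 29.0% did, although Atf3 passed it in sFD17 with library size alone, at −0.61. With FR17 2 members passed, both lower, where 22.7% of all genes tested passed in either direction. By edgeR's exact test at an unadjusted p under 0.05, with the spread taken from all 4 libraries as if they were replicates, 0 members were called. It called 1.98% of all genes tested for TP5, 4.83% for sFD17 and 1.88% for FR17 against control.

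In TP5 8 of 10 members were below control and 2 above, with a median log2 fold change of −0.27 where all genes tested had 0.00 and abundant genes −0.01. Jun had a log2 fold change of −0.51 (95% interval −0.54 to −0.48), Fosb −0.50 (−0.52 to −0.48) and Atf3 −0.42 (−0.46 to −0.38). Among abundant genes 3.55% stood lower than Jun, 3.72% lower than Fosb and 6.08% lower than Atf3. Fos and Dusp1 were at −0.31 and −0.30, and Jund at −0.23. Nr4a1 at 0.11 and Ier2 at 0.07 were the members above control. Junb at −0.02 and Egr1 at −0.04 lay so close to 0 that their sign changed with the scaling, and the other 8 kept theirs under every setting tried.

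In sFD17 6 members were above control and 4 below, with a median of 0.21 against −0.03 for all genes tested and 0.15 for abundant genes. With library size alone the median of the members turned to −0.0085. Nr4a1 was the highest at 0.49 (0.47 to 0.51), followed by Dusp1 at 0.38 (0.37 to 0.39) and Junb at 0.37 (0.36 to 0.38). Atf3 at −0.40 (−0.44 to −0.36) and Jun at −0.33 (−0.37 to −0.30) went the other way. These 5 genes, with Egr1 and Ier2, kept their sign under every setting, although with library size alone Nr4a1 came to 0.28, Dusp1 to 0.17, Junb to 0.15 and Ier2 to 0.00, while Jun moved away from control to −0.55. The signs of Fos, Fosb and Jund changed with the scaling.

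In FR17 9 members were below control and 1, Jun, above. The median was −0.28, with 0.02 for all genes tested and −0.22 for abundant genes, and with library size alone that of the members was −0.037. Fosb had −0.68 (−0.70 to −0.67) and Dusp1 −0.63 (−0.65 to −0.62), the members past 1.5-fold. Neither passed 1.5-fold with library size alone, at −0.44 and −0.39, or centred on abundant genes, at −0.46 and −0.41, and Dusp1 did not without the filter on low counts, at −0.56. Among abundant genes 8.77% stood lower than Fosb and 11.5% lower than Dusp1. Junb had −0.47, Fos −0.38, Nr4a1 −0.31 and Atf3 −0.25. Under the settings tried, Junb ranged from −0.48 to −0.22 and Fos from −0.39 to −0.14. Jun had 0.09 (0.06 to 0.11), and 81.7% of abundant genes stood lower. It came to 0.33 with library size alone and 0.31 centred on abundant genes. Relative to the median of abundant genes, 3 members were above and 7 below. Egr1, Jund and Ier2, at −0.24, −0.22 and −0.05, changed sign with the scaling. The other 7 kept theirs, although with library size alone Atf3 came to −0.0055 and Nr4a1 to −0.069.

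**Figure D2:**
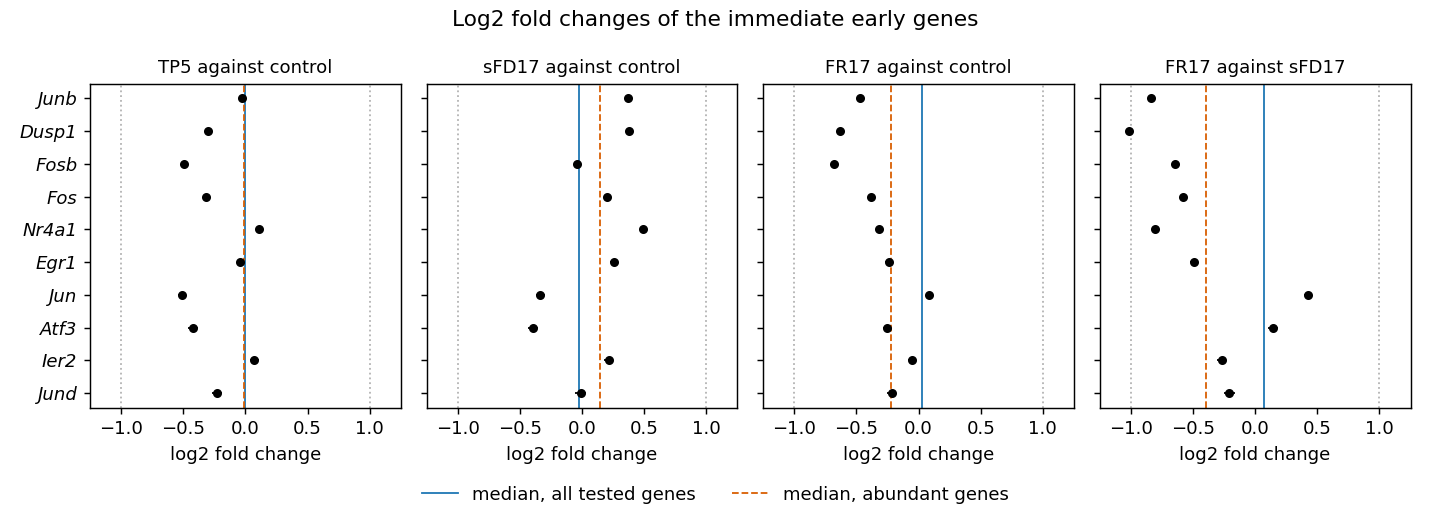
Log2 fold changes of the 10 genes in TP5, sFD17 and FR17 against control and in FR17 against sFD17, with 95% counting intervals, the median of all genes tested (solid line), the median of abundant genes (dashed line) and the 2-fold limits (dotted lines). Jun and Atf3 lay left of both medians in sFD17 against control and right of both in FR17 against sFD17.

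The 3 peptides were given at the same dose and for the same days, so their libraries were also compared directly, in 3 pairs. FR17 and sFD17 differ in the order of the pentapeptide residues. On the TMM scale the median of the members was largest in size between these libraries. With library size alone and when centred on abundant genes it was larger in size for TP5 against control, at −0.21 and −0.26. All genes tested also passed 2-fold most often between FR17 and sFD17. Here 1 member passed 2-fold, Dusp1, which was lower in FR17 with a log2 fold change of −1.01 (95% interval −1.03 to −1.0), at the limit itself, where 10.8% of all genes tested were lower by that much and 18.2% of abundant genes passed 2-fold in either direction. With library size alone it was −0.55, and it was no longer past 2-fold there, without the filter on low counts or when centred on abundant genes. At 1.5-fold 4 members passed, Dusp1, Junb, Nr4a1 and Fosb, all lower in FR17, where 46.0% of all genes tested passed. With library size alone none of these 4 passed 1.5-fold, as Junb came to −0.37, Nr4a1 to −0.34 and Fosb to −0.19, and the members past it were instead Jun at 0.88 and Atf3 at 0.61, both higher in FR17. Centred on abundant genes Dusp1 at −0.62 and Jun at 0.82 passed it. DESeq2's size factors added Fos at −0.63, and without the filter on low counts Fosb did not, at −0.54. Past 2-fold in either direction were 22.1%, and the exact test called 0 members and 12.7% of all genes. Junb had −0.84 (−0.85 to −0.82), Nr4a1 −0.81 (−0.82 to −0.79), Fosb −0.65 and Fos −0.58. Jun at 0.42 (0.39 to 0.45) and Atf3 at 0.14 (0.11 to 0.18) were instead higher in FR17, and remained so under every setting, from 0.37 to 0.88 for Jun and from 0.10 to 0.61 for Atf3. The median of the members was −0.54, against 0.07 for all genes tested and −0.39 for abundant genes. It was −0.077 with library size alone, where Fos came to −0.12, and −0.14 centred on abundant genes.

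FR17 and free TP5 differ in the backbone that assembles. Of the members, 0 passed 2-fold between them, where 9.92% of all genes tested did (7.04% higher and 2.88% lower in FR17). At 1.5-fold 1 member passed, Jun, where 24.5% of all genes did, and the exact test called 0 members and 3.67% of all genes. Jun was higher in FR17 at 0.60 (0.57 to 0.63), above 98.1% of abundant genes, and Atf3 at 0.17 (0.13 to 0.21). Junb at −0.45 and Nr4a1 at −0.42 were lower in FR17. These 4 genes kept their sign but moved with the scaling, and centred on abundant genes Junb came to −0.22, Nr4a1 to −0.20, Atf3 to 0.39 and Jun to 0.82. Fos, Fosb, Egr1 and Ier2 changed sign, and the median of the members turned from −0.16 to 0.038 with library size alone and 0.067 when centred. Jund at 0.01 (−0.03 to 0.05) was not separable within counting error. Between sFD17 and TP5, 0 members passed 2-fold, where 12.4% of all genes tested did (6.74% higher and 5.64% lower in sFD17). At 1.5-fold 1 member passed, Dusp1, where 31.8% of all genes did, but it did not with library size alone, at 0.42, or centred on abundant genes, at 0.53, and the exact test called 0 members and 4.64% of all genes. All 10 members were higher in sFD17, from 0.02 for Atf3 (−0.02 to 0.07) to 0.68 for Dusp1 (0.67 to 0.70). With library size alone only 6 of the 10 were higher in sFD17, and these 6, Dusp1, Fos, Fosb, Junb, Nr4a1 and Egr1, were higher under every setting.

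Ratios between genes of 1 library do not depend on the scaling between libraries, and several of them differed between FR17 and sFD17. The ratio of Jun to Junb counts was 0.149 in control (95% exact binomial interval 0.147 to 0.151), 0.106 with TP5 (0.104 to 0.108), 0.0916 with sFD17 (0.0898 to 0.0933) and 0.219 with FR17 (0.216 to 0.222). It was 2.39 times as high in FR17 as in sFD17, and no interval overlapped another. The ratio of Atf3 to Fos was 0.272 in control, and 0.252, 0.18 and 0.298 with TP5, sFD17 and FR17. Jund to Junb and Ier2 to Junb were likewise highest in FR17 and lowest in sFD17, by 1.55 and 1.48 times, beside 1.66 times for Atf3 to Fos. The ratio of Dusp1 to Fos ran the other way, with 1.84 in control, and 1.86, 2.09 and 1.55 with TP5, sFD17 and FR17. That of Fosb to Fos was 1.03 in control and lower in each peptide library, at 0.909 with TP5, 0.878 with sFD17 and 0.839 with FR17.

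**Figure D3:**
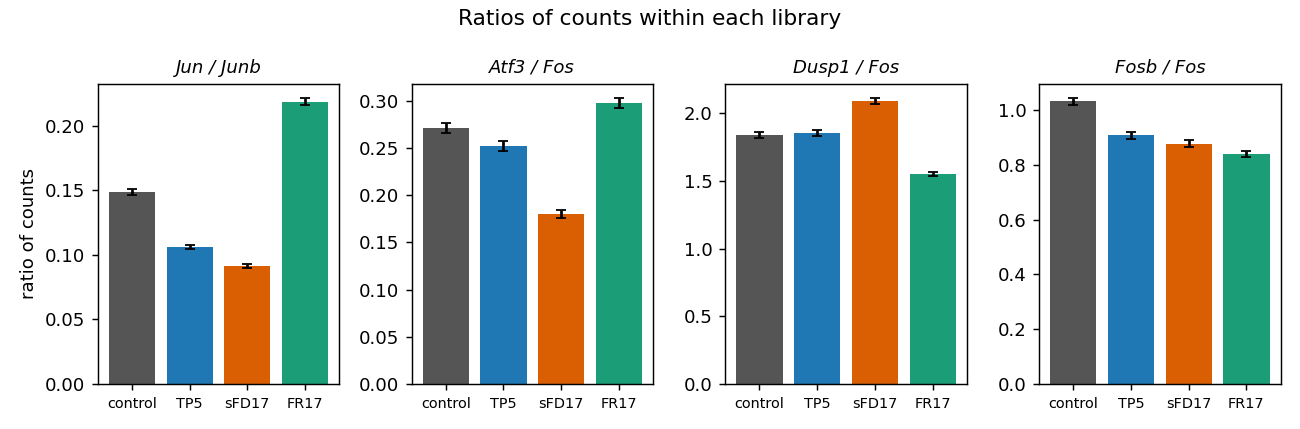
Ratio of counts of Jun to Junb, Atf3 to Fos, Dusp1 to Fos and Fosb to Fos in each library, with 95% exact binomial intervals and each vertical axis starting at 0. Jun to Junb and Atf3 to Fos were lowest in sFD17 and highest in FR17, and Dusp1 to Fos was highest in sFD17 and lowest in FR17.

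Summed per kilobase, the Jun family was mostly Junb, which made up 82.4% of it in control, 85.6% with TP5, 87.1% with sFD17 and 77.9% with FR17. Jun, the subunit with the stronger transactivating function, took 8.85%, 6.55%, 5.76% and 12.3% in the same order. In the Fos family, Fos took 62.3%, 61.7%, 60.1% and 67.1%. Fosl2, a family member outside the 10, took 12.0% in control, and 14.5%, 17.0% and 10.2% with TP5, sFD17 and FR17.

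**Figure D4:**
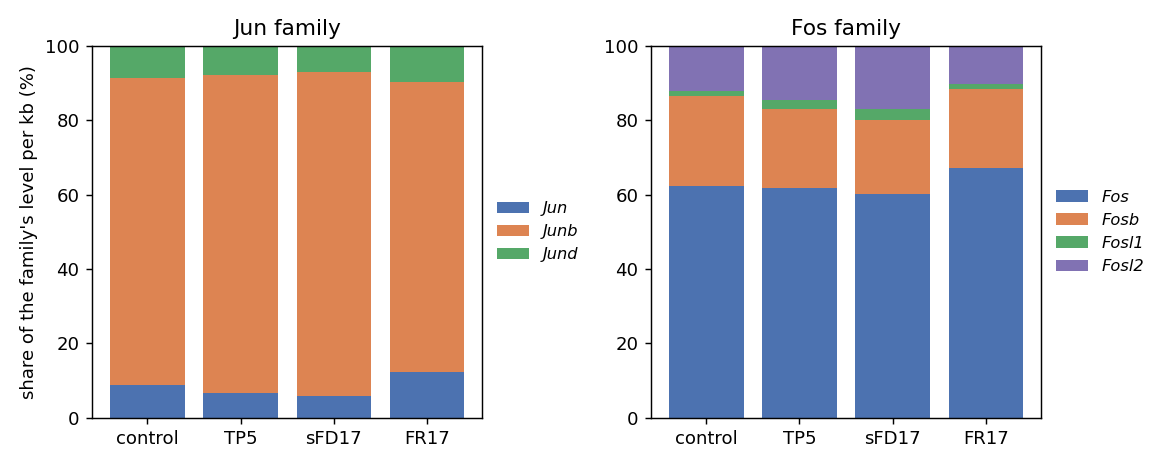
Shares of Jun, Junb and Jund in the summed level per kilobase of the Jun family (left) and of Fos, Fosb, Fosl1 and Fosl2 in that of the Fos family (right), in percent, 1 bar per library. Junb filled 77.9% to 87.1% of the Jun family, and the share of Jun was largest in FR17 at 12.3%.

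Overlapping genes were read from GENCODE M21. Junb shares 173 exon bases with Prdx2, an opposite-strand gene of 545 to 1346 counts, and Jun shares 232 with the antisense gene Junos, which had 27 to 44 counts. Jund shares 877 exon bases with the antisense gene Gm11175, which had 0 counts in every library. Whether the counting used strand is not given in the sources used here. The members had at least 7446 counts in every library, and the counts on the neighbours of Jun and Junb were small beside theirs. Low counts on a neighbour do not show whether reads in the shared bases were left out for the member, which was not tested. For Jund the shared bases are 877 of 1668, so its level per kilobase and its share of the Jun family may be affected.

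Genes of the same response and of the surrounding pathway were then read from lists. Of 35 other immediate early genes, 34 were tested. In TP5 0 of the 34 were past 2-fold higher and 1 was lower, Cyr61, a secreted matricellular protein gene, from 319 counts in control to 131. In sFD17 2 were past 2-fold higher and 0 lower, Fosl1, an AP-1 subunit gene, with a log2 fold change of 1.38 (1.26 to 1.5), and Homer1, a scaffold protein gene, with 1.05 (0.98 to 1.12). In FR17 0 were past 2-fold higher and 1 was lower, Homer1, from 2674 counts in control to 1759. The medians were −0.05 with TP5, 0.37 with sFD17 and −0.45 with FR17, where abundant genes had −0.01, 0.15 and −0.22. Log2 fold changes of this and the following lists were taken on the TMM scaling alone. Between FR17 and sFD17, 2 of the 34 were past 2-fold higher in FR17 and 12 lower, where 11.3% and 10.8% of all genes tested were. The median was −0.89. Abundant genes had a median of −0.39 there, with 18.2% past 2-fold in either direction. Library size alone moved the members up by 0.46 in this comparison. The list spread to both sides there, from −2.10 for Homer1 to 1.07 for Cyr61.

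Of 19 other AP-1 and CREB family bZIP genes, 1 was past 2-fold lower in TP5, and 1 was higher and 1 lower in sFD17. The gene lower in sFD17 was Maf, a large bZIP factor of macrophages, with 1933 counts in control, and 996, 403 and 2770 with TP5, sFD17 and FR17, and the same gene was the one lower in TP5. Batf2 was the one higher in sFD17, from 45 counts to 74. Of the 22 MAP kinase and SRF/ELK inputs, 0 passed 2-fold against control in any peptide library. Their medians were 0.00 with TP5, 0.17 with sFD17 and −0.10 with FR17. The farthest were Rps6ka4, a nuclear kinase gene, at 0.94 in sFD17, and in FR17 the kinase genes Braf at −0.93 and Map2k3 at −0.66. Of 15 other MAP kinase phosphatases and feedback inhibitors, 0 passed in TP5 and FR17 and 1 in sFD17, Spry4, from 9 counts in control to 17, named after its value was seen. Dusp16 and Dusp2, phosphatase genes like Dusp1, were at 0.93 and 0.79 in sFD17, and the receptor signaling inhibitor Spry1 was at 0.59 in FR17 with a wide interval from 0.12 to 1.12.

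**Figure D5:**
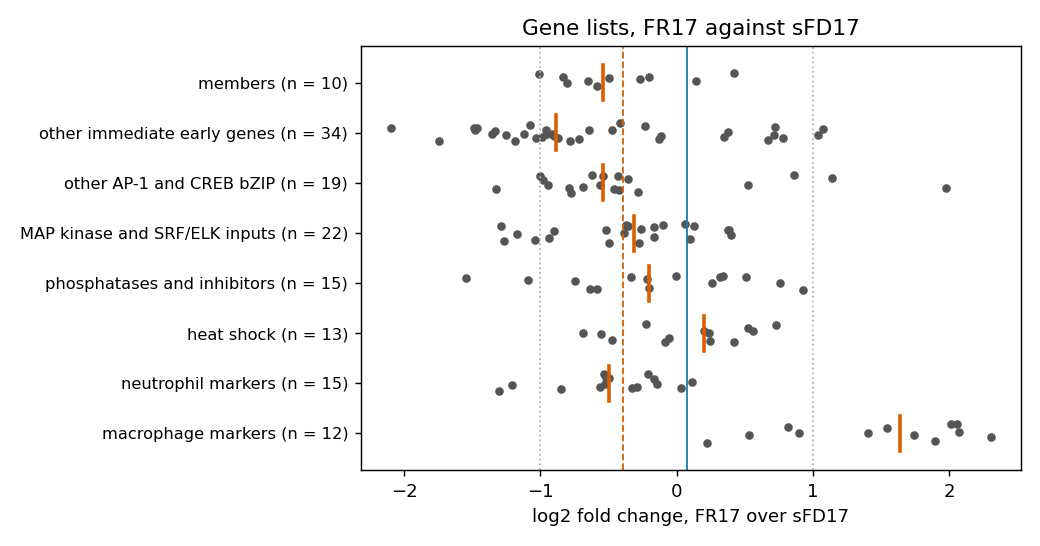
Log2 fold change in FR17 over sFD17 for the genes of 8 lists, 1 point per gene with arbitrary vertical scatter, the median of each list (short bars), the median of all genes tested (solid line) and of abundant genes (dashed line), and the 2-fold limits (dotted lines). The medians were −0.54 for the 10 members, −0.89 for the other immediate early genes and 1.64 for the macrophage markers.

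Markers of other cells and signs of handling were measured beside these results. Ly6g, the sorting marker, had 73.1 CPM in control, and 97.8, 111 and 90.7 with TP5, sFD17 and FR17, and Itgam, which encodes CD11b, had 381, 370, 433 and 302. The 15 neutrophil markers summed to 33896 CPM in control, and 37400, 44489 and 30389 with TP5, sFD17 and FR17. On this scale the sum was highest and lowest in the same libraries as Junb, Dusp1, Nr4a1 and Egr1. As a share of all counts it was instead lowest in control at 3.34% and highest in TP5 at 3.82%, with 3.78% in sFD17 and 3.55% in FR17, and single markers did not all take the order of the CPM sum. Against control all 15 were higher in sFD17, 2 of them past 2-fold, while in FR17 7 were above and 8 below, with 1 past 2-fold each way. Between FR17 and sFD17 13 of the 15 were lower in FR17, 2 past 2-fold. Camp, a granule protein gene, had 790 CPM in control and 1139 in FR17. The 12 macrophage markers summed to 7037 CPM in control, and 4606, 2698 and 8150 with TP5, sFD17 and FR17. As a share of all counts this sum was 0.694% in control, and 0.471%, 0.229% and 0.953% with TP5, sFD17 and FR17. All 12 markers were lower in sFD17 than in control, 7 of them past 2-fold, where 6.47% of all genes tested were. All 12 were higher in FR17 than in sFD17, 8 past 2-fold, where 11.3% of all genes tested were. Jun and Atf3 were likewise lower in sFD17 than in control and higher in FR17 than in sFD17. In these sorted pools a different number of cells of a type and a different amount of RNA per cell cannot be told apart, and the part of either cell type in the values of the members was not tested. The 13 heat shock genes, which respond to tissue digestion as immediate early genes do, summed to 4980 CPM in control, and 5761, 5541 and 5355 with TP5, sFD17 and FR17. Their share of all counts had another order, lowest in sFD17 at 0.470% and highest in FR17 at 0.626%, with 0.491% in control and 0.589% in TP5. Against control 1 of them passed 2-fold, Hspa1b in sFD17 at 1.08 (1.02 to 1.13), while Hspa1a was at 0.62 there and Hspb1 at 0.60 in FR17. Their list medians were 0.20 with TP5, 0.07 with sFD17 and 0.28 with FR17, against −0.27, 0.21 and −0.28 for the members. The part of handling was not tested. The remaining marker lists were small beside the members, whose sum was between 19134 and 30903 CPM. Some of them moved in the comparisons described above. The 10 T and NK cell markers summed to 63.5 CPM in control, and 44.8, 40.8 and 140.0 with TP5, sFD17 and FR17. All 10 were higher in FR17 than in control, 6 past 2-fold with a median of 1.34, and 8 were past 2-fold higher in FR17 than in sFD17. The 6 eosinophil, basophil and mast cell markers summed to 5.74 CPM in control, and 10.2, 8.49 and 19.5 with TP5, sFD17 and FR17, and against control 4 were past 2-fold higher in sFD17, with the other 2 below, and 5 in FR17. These rest on few counts, such as 2 in control and 10 in sFD17 for Epx. The 5 platelet markers summed to 33.9 CPM in sFD17, the lowest, and 147 in FR17, the highest, which was mostly Pf4, at 18.7 and 128.7 CPM. Single platelet markers did not follow the sum, since 4 of 5 were above control in sFD17. The 6 alveolar and airway epithelial markers summed to 649 CPM in control and 1313 in sFD17, mostly Scgb1a1 at 565 and 1222, while 3 of 6 were above control, 2 of them past 2-fold, and 3 below. Fibroblast and smooth muscle markers were lowest in TP5 at 193 CPM and highest in FR17 at 320, and endothelial markers likewise at 116 and 187, with 2 of 6 in each list past 2-fold lower in TP5 than in control. B and plasma cell markers had 117 CPM in control and at most 179, in TP5, where 1 of 6 was past 2-fold higher. The part of these cell types in the values of the members was not tested. No marker of any list was at or under 3 counts in every library.

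The genes with a pattern over the 4 libraries most like the mean of the members were Atp6v1a, Noct, Plekhf2, Traf4 and Hip1. They were the nearest of 9790 genes with at least 50 counts in every library, by the Euclidean distance of centred log2 CPM, at 0.0104 to 0.0386 where the median distance was 0.517. The mean pattern of the members was 0.10 in control, and −0.11, 0.22 and −0.21 with TP5, sFD17 and FR17. With 4 libraries this likeness rests on 4 values per gene, and is a description.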

How the data were processed

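The deposited values are raw counts, not normalized, that the authors made for 4 libraries, with the gene length in bases as another value of the file. The submitters' processing notes name HISAT2 2.0.5, StringTie 1.3.3b, featureCounts 1.5.0-p3, edgeR 3.18.1 and GRCm38.p6. GENCODE M21 holds 54409 of the 54532 identifiers, 53499 of them at identical coordinates. Totals were 17132880 counts in control, and 17165184, 15543071 and 19638228 with TP5, sFD17 and FR17, with TMM factors of 0.986, 1.02, 0.849 and 1.17. A gene without counts could still have had 3, which is 0.131 to 0.227 CPM.

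R 4.3.3, edgeR 4.0.16, DESeq2 1.42.0, Python 3.11.15, pandas 2.3.3, numpy 2.4.6 and matplotlib 3.10.9 were used. A gene was kept where any library reached 10 counts, which left 16369. Log2 fold changes were taken between TMM-scaled log2 CPM values (prior count 2), and a gene was called past 2-fold. The unit of replication is the library, with 1 per group, so no test of conditions was possible. Intervals are exact binomial intervals of the pair of counts, at 95%. The procedure was tested on simulated data. Promoter sequences are RefSeq's, on GRCm38.p6, and overlapping exons are from GENCODE M21.

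The 10 members, the other lists and the alternatives were chosen with earlier results of these data known. In each pathway list the 3 genes with the largest change against control were named, if either library reached 50 counts. A result this rule would name is not reported here. Scaling was varied to DESeq2's size factors and to plain library size, and the filter to none and to 10 counts required everywhere. Further alternatives were a prior count of 0.5, a call at 1.5-fold, a call by edgeR's exact test and a total without the 10 most abundant genes. Centring on the median of abundant genes was added after seeing the data.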

Additional observations from a re-analysis of the deposited data

How the results depend on the processing

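With 1 library per group no difference has a replicate check, and depth did not limit the members, which had at least 7446 counts in every library. The size of their common shift depended on the scaling, and its sign turned for sFD17 against control and FR17 against TP5. With library size alone the median log2 fold change of the members was −0.21 with TP5, −0.0085 with sFD17 and −0.037 with FR17 against control, and −0.077 for FR17 against sFD17, 0.038 for FR17 against TP5 and 0.072 for sFD17 against TP5, and 15 of 60 values of single members changed sign. That scaling moved the median of all genes tested to 0.05 with TP5, −0.23 with sFD17 and 0.26 with FR17. Centred on the median of abundant genes, a setting chosen after seeing the data, the members had 0.061 in sFD17 and −0.063 in FR17 against control, −0.14 for FR17 against sFD17, 0.067 for FR17 against TP5 and 0.18 for sFD17 against TP5, and 10 of 60 values changed sign. Without the filter on low counts the medians were 0.17 in sFD17, −0.21 in FR17, −0.43 for FR17 against sFD17, −0.081 for FR17 against TP5 and 0.30 for sFD17 against TP5. DESeq2's size factors gave 0.25 in sFD17, −0.59 for FR17 against sFD17 and 0.38 for sFD17 against TP5. At 1.5-fold 2 members were called in FR17 against control, 4 in FR17 against sFD17, 1 in FR17 against TP5 and 1 in sFD17 against TP5. The single 2-fold call, Dusp1 in FR17 against sFD17, became 0 with library size alone, without the filter, when centred on abundant genes, and by edgeR's exact test at an unadjusted p under 0.05, which called 12.7% of all genes there. That exact test called 0 members in all 6 comparisons. Signs held under every setting for 8 of 10 members in TP5 against control, 7 in sFD17, 7 in FR17, 8 in FR17 against sFD17, 6 in FR17 against TP5 and 6 in sFD17 against TP5. A prior count of 0.5 and a total without the 10 most abundant genes changed no sign. No paired analysis was possible because each group has 1 library.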
